A study of Mus musculus with 12 samples.

Results

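Gamma-aminobutyric acid (GABA) and glycine are the main fast inhibitory transmitters of the brain, and the transcripts of 30 genes that make, move and sense them were followed here in a mouse model of a late infantile neuronal ceroid lipofuscinosis. The genes were chosen by symbol: 14 genes of GABA-A receptor subunits (the rho subunits included), 2 of GABA-B receptor subunits, 3 of enzymes of GABA synthesis and breakdown, 3 of GABA transporters, 5 of glycine receptor subunits, 2 of glycine transporters and *Gphn*, which encodes the scaffold gephyrin. All 30 were found among the 52459 gene symbols of the count tables. The list does not hold every gene of these families, and genes outside it are not described unless they are named.

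RNA was taken from cerebellum (Cb) and from forebrain/midbrain (F/M) of males 4 months old, either *Tpp1*-/- homozygotes (T), in which gene targeting disrupted the gene of the lysosomal tripeptidyl peptidase 1, or wild-type siblings (N) from heterozygous crosses. There were 12 libraries of mRNA, 3 in each of the groups F/M-N, F/M-T, Cb-N and Cb-T. The study describes this age as the end stage of the model, and it is the only time point. The methods name 3 mice of each genotype for both areas, so that, read this way, the Cb and F/M libraries of a genotype shared animals. It is not stated whether libraries that carry the same number came from 1 mouse, and tests across the areas treated all libraries as independent.

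Total counts were 21428379 to 24458189 per library. Levels are given as CPM, counts per 1000000 counts after trimmed-mean (TMM) scaling of the 12 libraries together. At this depth 3 counts of a gene, taken as the smallest detectable level, are 0.121 to 0.139 CPM, for counting error only. A gene was called differentially expressed (DEG) at a false discovery rate (FDR) under 0.1 with a change of 1.5-fold or more, in edgeR's quasi-likelihood test over all genes with Benjamini-Hochberg adjustment, and every adjusted p below comes from that test unless another is named. The targeted gene *Tpp1* had 87.7 to 94.3 CPM in F/M-N against 21.8 to 23.9 CPM in F/M-T, and 112 to 114 CPM in Cb-N against 28.0 to 31.0 CPM in Cb-T. The labelled tissues matched their markers, since the summed level of 10 forebrain neuron genes was 410 to 419 CPM in F/M-N and 9.05 to 9.86 CPM in Cb-N, and that of 10 granule cell genes 252 to 255 CPM and 5967 to 6051 CPM. The Cb-T libraries also held transcripts of *Hox* genes, which mark the hindbrain behind the cerebellum and the spinal cord. The summed level of 17 such genes was 14.3 to 15.1 CPM in Cb-T against 0.371 to 0.596 CPM in Cb-N and no more than 0.131 CPM in any F/M library.

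GABA-A receptors are chloride channels assembled from several subunits, and the alpha, beta, gamma, delta, epsilon and theta genes determine where on the neuron they sit and how they respond to drugs. GABA-B receptors, in contrast, are G protein-coupled heterodimers. Glycine receptors are chloride channels of alpha subunits with the beta subunit, which binds gephyrin, and they carry much of the inhibition in the spinal cord and brainstem. In the cerebellum, Purkinje, basket, stellate and Golgi cells release GABA, and many Golgi cells release glycine as well.

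In control mice the 2 areas expressed most of these genes at different levels. Of the 28 members that passed the count filter in this comparison, 15 were called lower in Cb-N than in F/M-N (22.8% of all 16725 genes tested were) and 3 were called higher (19.2% of all genes). Together 18 were called, against 42% of all genes. The median log2 ratio of the tested members, Cb-N to F/M-N, was -0.80, and that of all genes was 0.01. The members called higher in Cb-N were *Slc6a5*, *Gabrd* and *Slc6a9*. *Slc6a5*, the glycine transporter of glycinergic nerve terminals, had 50.1, 48.8 and 47.1 CPM in Cb-N and 1.73, 0.855 and 0.804 CPM in F/M-N, a log2 ratio of 5.42 (standard error, SE, 0.12, adjusted p = 6.5e-20). *Gabrd*, the delta subunit of extrasynaptic receptors of granule cells, had 185 to 197 CPM against 60.6 to 64.0 CPM (log2 ratio 1.60). At the other end, *Gabra5*, an alpha subunit known from hippocampal neurons, had 0.976, 1.10 and 0.928 CPM in Cb-N and 82.5, 78.0 and 77.5 CPM in F/M-N, a log2 ratio of -6.30 (SE 0.085, adjusted p = 3.0e-23).

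Levels can be compared between genes once the counts are divided by gene length, here that of the merged exons. Per kb of exon, *Gabrd* led the listed GABA-A subunits in Cb-N with 66.0 RPKM (CPM per kb of exon, 64.4 to 68.4 over 3 libraries), followed by *Gabrb2* with 42.3 (39.0 to 44.2) and *Gabra2* with 12.4 (12.2 to 12.5). In F/M-N *Gabra3* led with 45.1 (44.5 to 45.8), followed by *Gabrb2* with 30.4 (27.8 to 32.7). The next 3, *Gabra5* with 26.7 (26.1 to 27.8), *Gabra4* with 26.4 (26.1 to 27.0) and *Gabra2* with 26.3 (26.1 to 26.4), overlapped between libraries. The order depended on the length used. Per kb of the longest transcript, *Gabrd* with 70.1 (68.4 to 72.6) and *Gabrb2* with 67.4 (62.2 to 70.5) overlapped in Cb-N, and *Gabra3* with 48.3 (47.7 to 49.1) and *Gabrb2* with 48.4 (44.4 to 52.1) overlapped in F/M-N. The 3 alpha genes did not overlap there, with 39.1 (38.6 to 40.0) for *Gabra4*, 34.3 (34.1 to 34.5) for *Gabra2* and 29.7 (29.0 to 30.9) for *Gabra5*. At the low end, *Gabrr1* and *Gabrr3*, rho subunits known from the retina, had no more than 0.380 CPM and 0.207 CPM in any of the 12 libraries and were not tested in any comparison. Among glycine receptor genes the beta subunit *Glrb* was by far the most abundant in both areas, with 62.4 (61.7 to 63.1) RPKM in Cb-N and 63.6 (63.3 to 64.1) in F/M-N. The highest alpha subunit of both control areas was *Glra2*, with 0.980 (0.732 to 1.21) in Cb-N and 8.13 (8.04 to 8.23) in F/M-N.

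**Figure D1:**
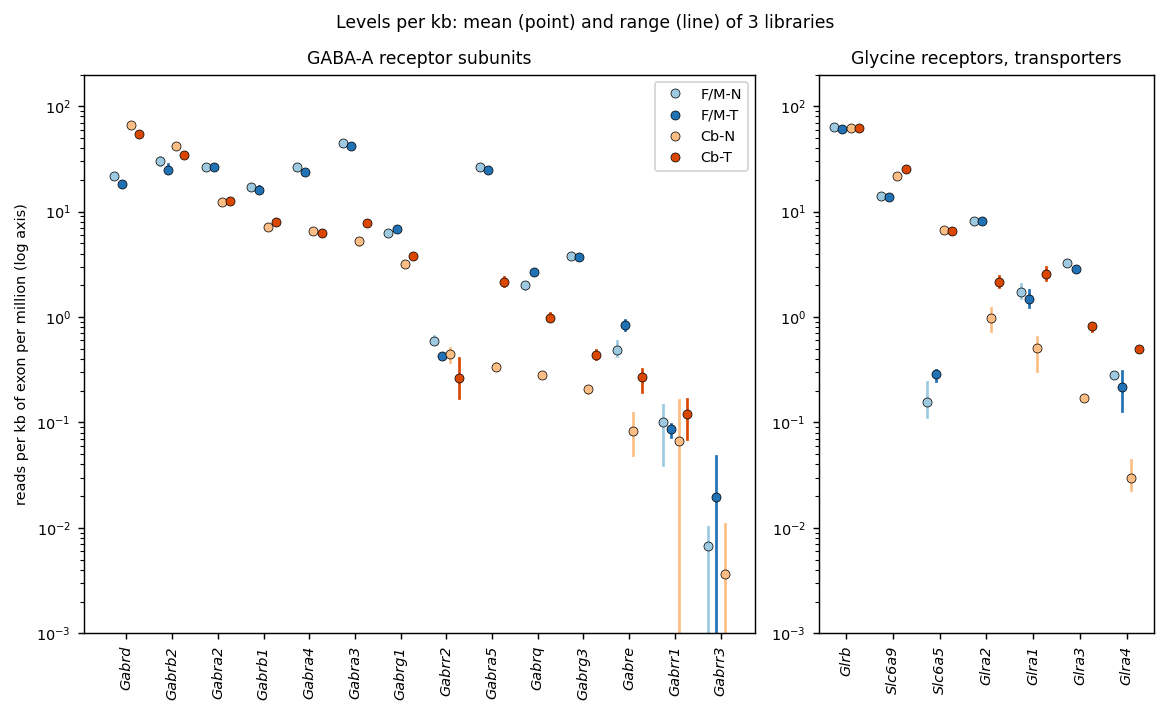
Levels per length of the listed GABA-A receptor subunit genes (left) and of the glycine receptor and transporter genes (right), in RPKM on a log axis. Points are means and lines the range of 3 libraries of F/M-N, F/M-T, Cb-N and Cb-T, genes are ordered by the level in Cb-N, and *Gabrr3* has no point in Cb-T, where it had no reads. With merged exons as the length, *Gabrd* is highest in Cb-N at 66.0 and *Gabra3* in F/M-N at 45.1, orders that the longest transcript does not keep, while *Glra1* and *Glra4* reach their highest level in Cb-T.

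The comparison of T with N was made first in Cb. There 10 of the 28 tested members were upregulated DEG (35.7%, against 8.54% of the 16382 genes tested) and 1 was a downregulated DEG (2.66% of all genes), 11 in all against 11.2% of all genes. At an adjusted p below 0.1 without the fold limit, 15 members were higher (29.8% of all genes) and 9 lower (27.9% of all genes). The upregulated members were 5 GABA-A subunit genes (*Gabra3*, *Gabra5*, *Gabrg3*, *Gabre* and *Gabrq*), the GABA transporter gene *Slc6a11* and all 4 glycine receptor alpha genes (*Glra1*, *Glra2*, *Glra3* and *Glra4*). *Gabrr2* was the downregulated member. *Glra4* and *Gabre* passed the count filter only with their Cb-T counts and *Gabrr2* only with its Cb-N counts, so that these calls are not independent of the filter. The median log2 change of the members was 0.20, against 0.01 over all genes tested. The summed level of the 30 genes overlapped between the genotypes, at 3843 to 3897 CPM in Cb-N against 3855 to 3900 CPM in Cb-T.

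The glycine receptor alpha subunits, which form the transmitter binding sites of the channel, all rose in Cb-T. *Glra1*, the alpha subunit typical of adult brainstem and spinal cord, had 1.42, 1.56 and 0.742 CPM in Cb-N against 7.25, 5.39 and 5.88 CPM in Cb-T. Every Cb-T library was above every Cb-N library, and the log2 change was 2.32 (SE 0.18, adjusted p = 6.8e-15). The Cb-T libraries also lay above the 3.68 to 5.0 CPM of F/M-N. *Glra3*, which inhibitory synapses of the dorsal spinal cord are known to use, had 1.55, 1.60 and 1.58 CPM in Cb-N against 8.01, 6.72 and 8.16 CPM in Cb-T (log2 change 2.28, SE 0.14, adjusted p = 1.7e-17). *Glra2*, the alpha subunit that prevails in the developing brain, had 2.31, 3.80 and 3.15 CPM in Cb-N against 7.72, 6.60 and 6.13 CPM in Cb-T (log2 change 1.16, SE 0.14, adjusted p = 1.7e-09). For both genes the genotypes did not overlap, yet the Cb-T level stayed far below the 29.6 to 30.6 CPM of *Glra3* and the 25.3 to 25.9 CPM of *Glra2* in F/M-N.

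*Glra4*, the remaining alpha subunit gene, was the scarcest of them. It had 2, 1 and 1 reads in the Cb-N libraries, under the smallest detectable level, and 23, 26 and 24 reads in the Cb-T libraries. Over the summed reads, scaled for depth, the ratio was 16.5 with an exact 95% interval of 6.19 to 62.4 that covers counting error only. As *Glra4* passed the count filter only with its Cb-T counts, the direction of its call was set by the filter. The fitted log2 change was 3.95 (adjusted p = 5.5e-09) and depends on the prior count of the fit at so low a level. *Glrb*, the partner that the alpha subunits share, did not follow them: it had 291, 287 and 294 CPM in Cb-N against 285, 295 and 294 CPM in Cb-T, overlapping values with a log2 change of 0.02 (SE 0.025, adjusted p = 0.56). Per kb of exon, *Glra1* had 2.56 RPKM (2.23 to 3.00) and *Glra2* 2.16 RPKM (1.95 to 2.45) in Cb-T, so that the order of these alpha genes, clear in Cb-N, could not be told from the overlapping Cb-T libraries.

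The other end of the glycine synapse was not altered in the same way. *Slc6a5* had 50.1, 48.8 and 47.1 CPM in Cb-N against 48.5, 47.2 and 46.9 CPM in Cb-T, with overlapping libraries and a log2 change of -0.02 (SE 0.042, adjusted p = 0.7). *Slc6a9*, the glial glycine transporter, had 110 to 112 CPM in Cb-N against 129 to 131 CPM in Cb-T. These libraries did not overlap, but the log2 change of 0.24 (adjusted p = 4.4e-09) was under the 1.5-fold limit.

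**Figure D2:**
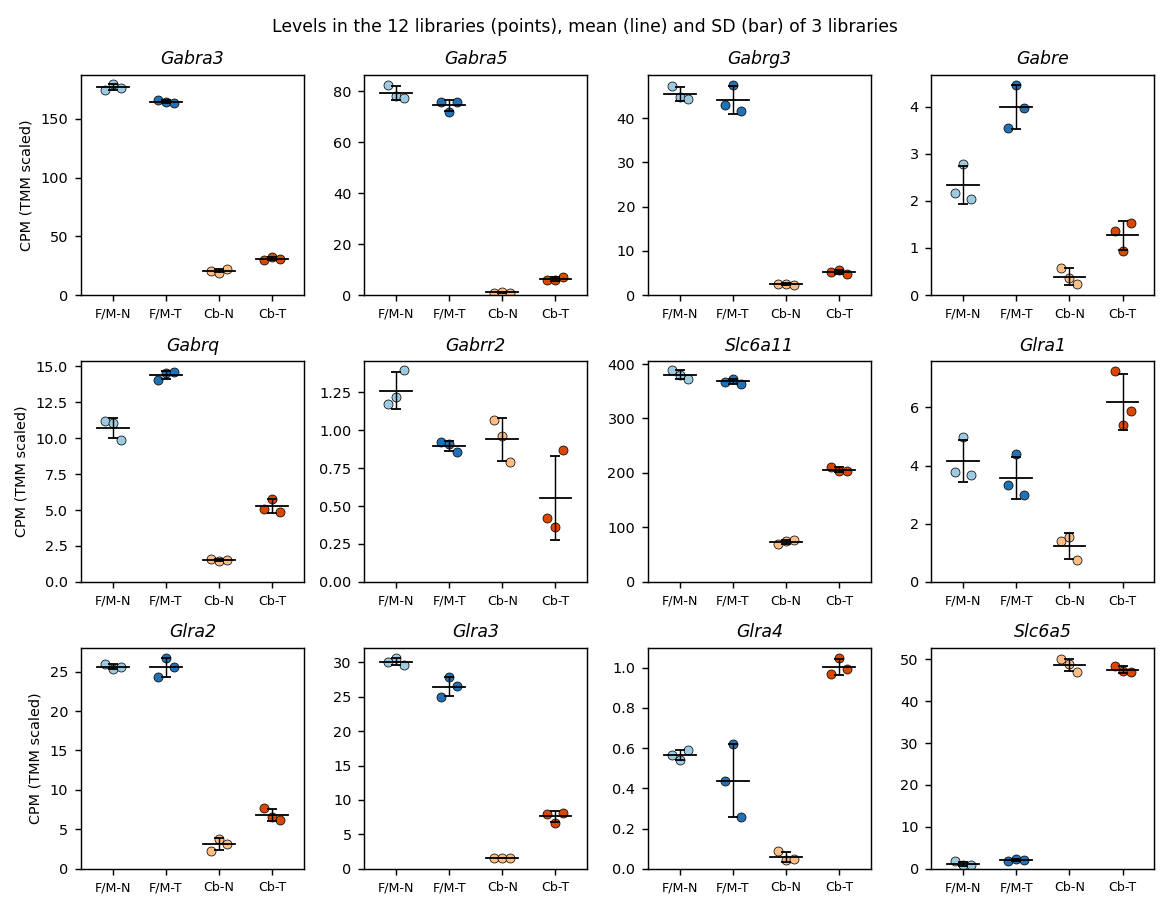
CPM of 12 members in each of the 12 libraries, on a linear axis from 0. Points are libraries, the horizontal line is the mean and the bar the SD of the 3 libraries of a group. In 10 panels all Cb-T points lie above all Cb-N points, while *Gabrr2* overlaps and *Slc6a5* lies near 48 CPM in both groups of Cb.

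Among the GABA-A receptor genes, the largest increase in Cb was that of *Gabra5*, which went from 0.976, 1.10 and 0.928 CPM to 6.07, 5.88 and 7.17 CPM in Cb-T (log2 change 2.68, SE 0.17, adjusted p = 1.2e-17). Its chromosomal neighbor *Gabrg3*, a gamma subunit, had 2.57, 2.57 and 2.27 CPM in Cb-N against 5.19, 5.76 and 4.81 CPM in Cb-T (log2 change 1.10, SE 0.14, adjusted p = 8.7e-09). Neither gene overlapped between the genotypes, and both stayed far below F/M-N, where *Gabra5* had 77.5 to 82.5 CPM and *Gabrg3* 44.4 to 47.2 CPM. *Gabrq* and *Gabre* encode the theta and epsilon subunits, known from hypothalamic and monoaminergic neurons. *Gabrq* had 1.60, 1.42 and 1.53 CPM in Cb-N against 5.10, 5.80 and 4.89 CPM in Cb-T (log2 change 1.81, SE 0.16, adjusted p = 3.1e-13). *Gabre* had 0.577, 0.367 and 0.232 CPM in Cb-N against 1.35, 0.926 and 1.53 CPM in Cb-T (log2 change 1.68, SE 0.33, adjusted p = 3.0e-05). The genotypes did not overlap for these genes either, although *Gabre* stayed near the lower end of what the depth can show.

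*Gabra3*, an alpha subunit of monoaminergic and cortical neurons, had 20.8, 19.1 and 21.8 CPM in Cb-N against 30.1, 32.2 and 30.6 CPM in Cb-T. Its log2 change of 0.60 (SE 0.057, adjusted p = 3.4e-12) lay just above the 1.5-fold limit of 0.585. It was 0.55 without Cb-N replicate 2 and 0.58 without Cb-T replicate 2, under the fold limit but with an adjusted p still below 0.1. *Gabrr2*, a rho subunit, had 1.06, 0.963 and 0.788 CPM in Cb-N against 0.422, 0.362 and 0.870 CPM in Cb-T. The third Cb-T library lay inside the Cb-N range, and the log2 change was -0.75 (SE 0.32, adjusted p = 0.048). That call was lost by the Wald test of DESeq2 (adjusted p = 0.15) and without Cb-N replicate 1, Cb-N replicate 2, Cb-T replicate 1 or Cb-T replicate 2, and without Cb-T replicate 3 the log2 change was -1.24.

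The GABA-A subunit genes that are abundant in cerebellum did not pass the fold-change limit. *Gabrb2*, the beta subunit that ranked highest in Cb, had 277, 281 and 248 CPM in Cb-N against 216, 223 and 213 CPM in Cb-T, a log2 change of -0.30 (adjusted p = 6.8e-11). *Gabrd* had 188, 185 and 197 CPM in Cb-N against 154, 154 and 158 CPM in Cb-T, a log2 change of -0.28 (adjusted p = 3.8e-11). In neither gene did the genotypes overlap. *Gabrg1*, a gamma subunit also found in glia, and *Gabrb1* were higher in Cb-T by 0.27 and 0.16 on the log2 scale (adjusted p = 3.4e-05 and 4.8e-05), and *Gabra2* and *Gabra4* had log2 changes of 0.04 and -0.04 (adjusted p = 0.33 and 0.49).

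GABA-A receptor genes lie in clusters in the genome, and the subunit genes that rose in Cb came from 2 of the 4 covered here. All coordinates are those of the GENCODE annotation of GRCm38. On chromosome 7, *Gabrg3* (56716465 to 57387188, minus strand) and *Gabra5* (57407672 to 57510059, minus strand) lie 20.5 kb apart, and both were upregulated in Cb. On chromosome X, *Gabre* (72255999 to 72274803), *Gabra3* (72432681 to 72656848) and *Gabrq* (72825178 to 72842602) lie within 72255999 to 72842602, and all 3 were upregulated. On chromosome 5, *Gabrg1*, *Gabra2*, *Gabra4* and *Gabrb1* lie within 70751047 to 72149037, and none of these 4 was called in Cb or in F/M. The 9 genes of these 3 clusters were all lower in Cb-N than in F/M-N. On chromosome 4, *Gabrr2*, the downregulated member, and *Gabrr1*, which was not tested, lie 36.7 kb apart. *Tpp1* itself lies on chromosome 7, 48.2 Mb from *Gabra5*.

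**Figure D3:**
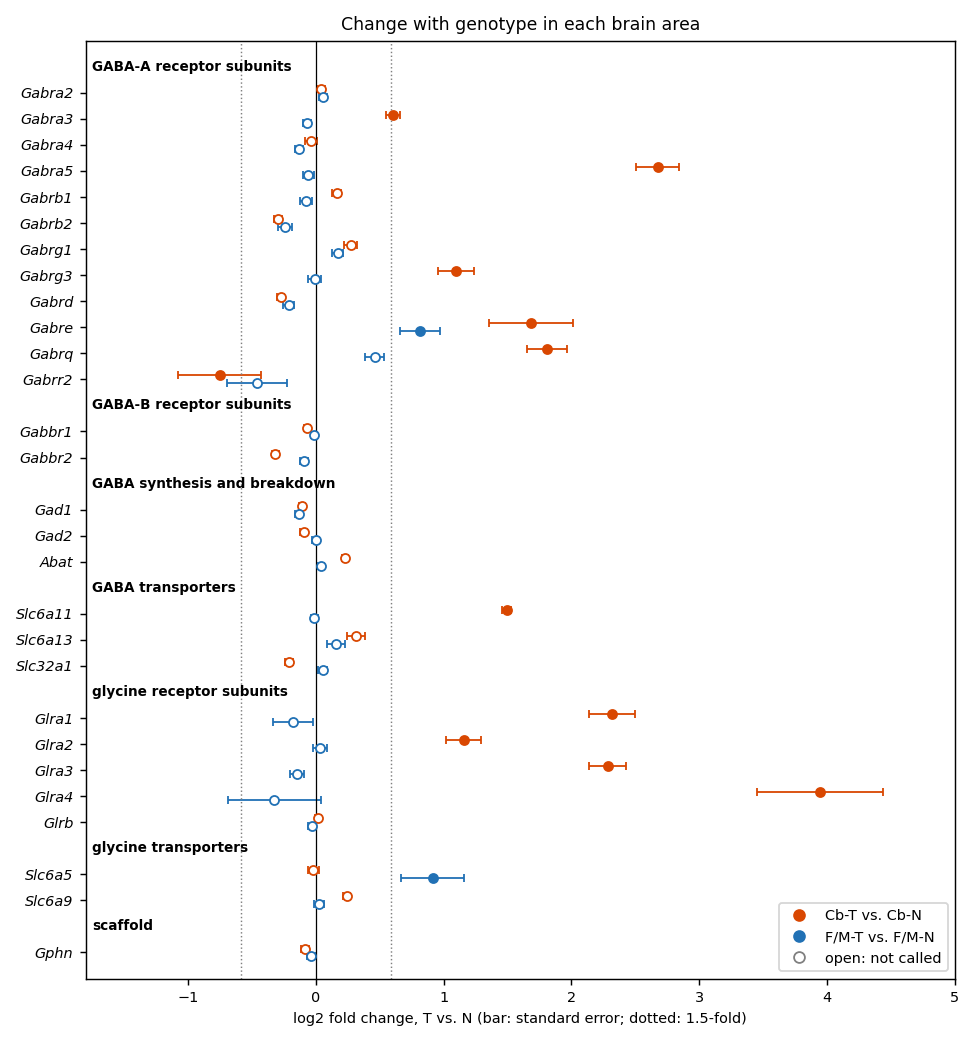
Log2 fold change of T against N, with its standard error, for the 28 tested members in Cb (orange) and in F/M (blue), grouped by role. Filled points are DEG, open points are not, and dotted lines mark a 1.5-fold change. The glycine receptor alpha genes lie at 1.16 to 3.95 in Cb and at -0.33 to 0.03 in F/M.

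*Slc6a11*, the GABA transporter of astrocytes, rose as well. It had 69.8, 75.2 and 76.8 CPM in Cb-N against 211, 203 and 203 CPM in Cb-T, with no overlap and a log2 change of 1.49 (SE 0.033, adjusted p = 2.7e-34). In F/M it had 389, 381 and 372 CPM in F/M-N against 368, 373 and 363 CPM in F/M-T, which overlapped (log2 change -0.01, adjusted p = 0.75). Of 8 other astrocyte genes, 2 were upregulated DEG in Cb (*Gfap* and *Aqp4*) and 1 in F/M (*Gfap*). At an adjusted p below 0.1 without the fold limit, 7 of the 8 were higher and 1 lower in Cb, and 7 higher and 0 lower in F/M. Their summed level was 4705 to 4769 CPM in Cb-N, 6194 to 6230 CPM in Cb-T, and 2188 to 2236 CPM in F/M-N against 2861 to 2895 CPM in F/M-T. The part of these cells in the change of *Slc6a11* was not tested. *Slc6a13*, a GABA transporter of meninges and vessels, had 13.2 to 15.5 CPM in Cb-N against 17.0 to 18.2 CPM in Cb-T (log2 change 0.31, adjusted p = 3.0e-04), under the fold limit. Of 8 fibroblast genes of meninges and vessels, none was a DEG in either area by the edgeR test, though 4 of them in Cb and 2 in F/M were higher in T at an adjusted p below 0.1. The summed level of that list was 263 to 271 CPM in Cb-N against 305 to 308 CPM in Cb-T. The choroid plexus list of 8 genes held no DEG either, with 2 genes higher and 3 lower at an adjusted p below 0.1 in Cb.

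The presynaptic genes of GABA neurons differed little. *Gad1*, the main GABA-synthesizing enzyme, had 656, 657 and 675 CPM in Cb-N against 603, 608 and 616 CPM in Cb-T, a log2 change of -0.11 (SE 0.022, adjusted p = 6.1e-05). *Gad2*, the second such enzyme, had 207, 211 and 205 CPM in Cb-N against 193, 197 and 188 CPM in Cb-T (log2 change -0.10, adjusted p = 0.0027). *Slc32a1*, the vesicular transporter that loads GABA and glycine into synaptic vesicles, had 116, 116 and 121 CPM in Cb-N against 107, 100 and 95.9 CPM in Cb-T (log2 change -0.21, adjusted p = 1.1e-06). All Cb-T libraries lay below all Cb-N libraries for the 3 genes, but each difference was well under 1.5-fold. *Abat*, which breaks GABA down, was higher in Cb-T by 0.23 on the log2 scale (438 to 463 against 520 to 527 CPM, adjusted p = 2.9e-11). The GABA-B subunit genes had log2 changes of -0.32 (*Gabbr2*, adjusted p = 1.9e-13) and -0.07 (*Gabbr1*, adjusted p = 0.0077), and *Gphn* had 100, 103 and 101 CPM in Cb-N against 91.4, 94.8 and 97.9 CPM in Cb-T (log2 change -0.09, adjusted p = 0.026). Most genes of the cerebellar neuron lists were lower too. Of 10 Purkinje cell genes 9 and of 10 granule cell genes 8 had an adjusted p below 0.1 and were lower in Cb-T, with none called at 1.5-fold and medians of -0.22 and -0.32. In whole tissue, fewer cells of a type and less RNA per cell cannot be told apart.

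Over the tested members, all 3 Cb-T libraries were above all Cb-N libraries for 15 (27.7% of all genes tested were) and below them for 8 (29.4% of all genes).

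Transcripts that mark other parts of the brain were also higher in Cb-T. Of the 17 *Hox* genes, 10 passed the filter in Cb and all 10 were upregulated DEG, led by *Hoxb5* with 2.54 CPM and *Hoxa5* with 2.24 CPM on average in Cb-T, and 9 of the 17 had no reads in any Cb-N library. Of 6 genes of cholinergic motor nuclei, 5 were tested and all were upregulated (median log2 change 2.83, summed level 1.30 to 1.51 CPM in Cb-N against 8.74 to 9.28 CPM in Cb-T). Of 7 genes of monoamine neurons, 6 were tested and 5 were upregulated (median 2.82, summed level 14.5 to 15.5 CPM against 43.0 to 48.4 CPM). The forebrain list did not move with them, at 9.05 to 9.86 CPM in Cb-N against 8.18 to 10.2 CPM in Cb-T, although *Lhx2* was upregulated (log2 change 3.79). Of a list of 8 genes chosen for interneurons, *Vip*, *Sst* and *Npy* were upregulated (3.87, 2.01 and 0.72), and *Tfap2b* was downregulated (-0.61). The other 4 were not called. *Vip* passed the filter only with its Cb-T counts, and which cells of Cb express the 8 genes was not tested. At an adjusted p below 0.1 without the fold limit, 4 genes of this list were higher and 4 lower, *Reln*, *Lgi2* and *Kit* among the latter with log2 changes of -0.40, -0.38 and -0.28. The microglial list of 8 genes held 7 upregulated DEG in Cb and 4 in F/M, and the oligodendrocyte list of 8 held 1 in Cb, *Opalin*. All 8 oligodendrocyte genes were higher in Cb-T at an adjusted p below 0.1, with a median log2 change of 0.33 and a summed level of 4614 to 4726 CPM in Cb-N against 6066 to 6125 CPM in Cb-T. In F/M edgeR called 0 of the oligodendrocyte genes, and 1 had an adjusted p below 0.1. All 3 Cb-T libraries carried the *Hox* transcripts at a like level, so none could be left out to avoid them. The part of these cells in the changes of the GABA and glycine genes was not tested, and with all Cb-T libraries alike the genotype and the makeup of the sample cannot be told apart.

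**Figure D4:**
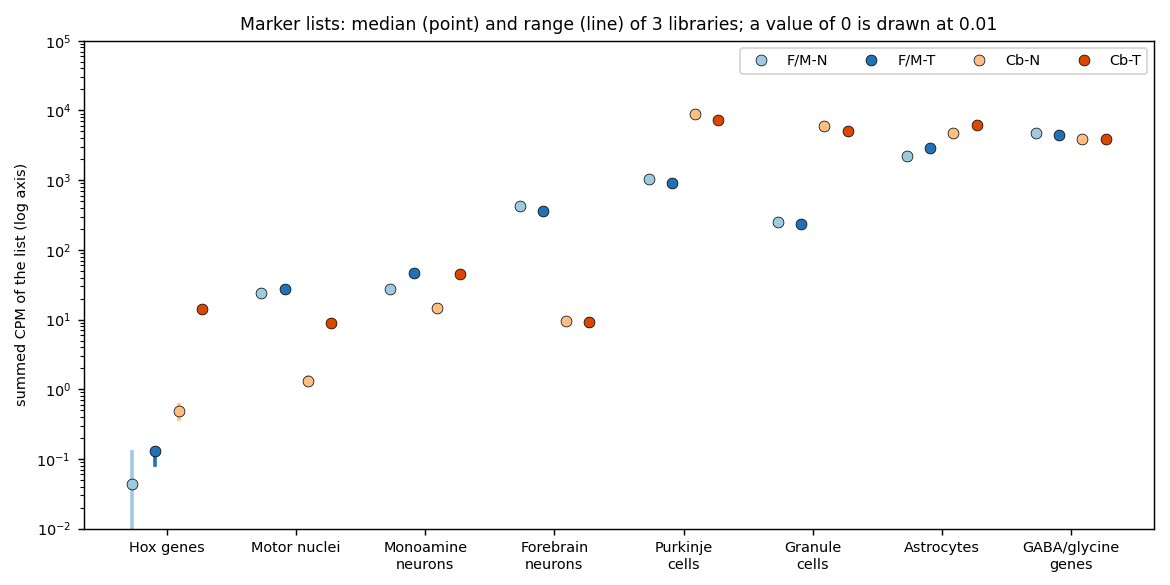
Summed CPM, on a log axis, of marker gene lists and of the 30 GABA and glycine genes, with the median (point) and range (line) of the 3 libraries of each group. The axis ends at 0.01, where a value of 0 is drawn, and the *Hox* list reaches 14.3 to 15.1 CPM in Cb-T only, motor nucleus and monoamine genes are higher in Cb-T than in Cb-N, and the forebrain list and the GABA and glycine genes overlap between Cb-N and Cb-T.

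Sequences upstream of the start are shown for 5 members, chosen after their values were seen because they rose together in Cb, so that their promoters can be compared. *Gabra5* and *Gabrg3* are from the same cluster, *Gabrq* is from the other, and *Glra3* and *Slc6a11* stand for the glycine receptor and transporter genes. Each is the 250 bases before a RefSeq start site in GRCm38.p6, on the strand of the gene: *Gabra5* at chr7:57510060-57510309 (minus), *Gabrg3* at chr7:57387216-57387465 (minus), *Gabrq* at chrX:72824928-72825177 (plus), *Glra3* at chr8:55940168-55940417 (plus) and *Slc6a11* at chr6:114130991-114131240 (plus). Capitals mark the GC box GGGCGG on either strand.
Gabra5: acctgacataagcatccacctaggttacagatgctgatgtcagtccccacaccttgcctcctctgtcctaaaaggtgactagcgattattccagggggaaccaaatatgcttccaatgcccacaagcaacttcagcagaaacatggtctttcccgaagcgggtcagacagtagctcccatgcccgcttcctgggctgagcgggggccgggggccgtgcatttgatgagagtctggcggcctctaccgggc
Gabrg3: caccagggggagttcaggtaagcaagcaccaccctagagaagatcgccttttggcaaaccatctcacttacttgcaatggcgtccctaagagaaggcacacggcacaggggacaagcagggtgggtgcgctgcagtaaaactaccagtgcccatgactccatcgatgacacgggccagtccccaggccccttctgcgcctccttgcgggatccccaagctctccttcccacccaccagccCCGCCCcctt
Gabrq: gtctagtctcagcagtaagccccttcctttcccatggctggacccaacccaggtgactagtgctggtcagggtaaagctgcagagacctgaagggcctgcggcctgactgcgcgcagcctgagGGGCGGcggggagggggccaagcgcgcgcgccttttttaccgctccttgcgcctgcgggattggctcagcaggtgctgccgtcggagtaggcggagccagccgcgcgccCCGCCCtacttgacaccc
Glra3: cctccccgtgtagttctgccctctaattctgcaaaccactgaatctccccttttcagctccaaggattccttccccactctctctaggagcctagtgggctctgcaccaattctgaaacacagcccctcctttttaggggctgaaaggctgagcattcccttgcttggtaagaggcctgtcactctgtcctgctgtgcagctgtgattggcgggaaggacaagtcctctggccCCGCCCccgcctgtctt
Slc6a11: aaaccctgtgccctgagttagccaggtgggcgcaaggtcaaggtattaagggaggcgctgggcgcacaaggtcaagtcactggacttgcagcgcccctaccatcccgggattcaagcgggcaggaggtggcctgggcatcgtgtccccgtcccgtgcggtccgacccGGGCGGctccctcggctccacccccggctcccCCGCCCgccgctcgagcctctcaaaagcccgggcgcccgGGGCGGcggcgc
The *Gabra5* window held no GC box, those of *Gabrg3* and *Glra3* held 1 each, that of *Gabrq* held 2 and that of *Slc6a11* held 3. None of the 5 windows held the TATA box TATAAA or the cAMP response element TGACGTCA on either strand. RefSeq windows were found for 27 of the 30 members, 36 windows in all, since a gene can have several starts. A GC box was present in 47.2% of them and in 32.7% of all 32851 windows, a TATA box in 13.9% and 12.4%, and the cAMP response element in none of the 36 and 1.55%. The median GC content was 58.4% for member windows and 52.4% for all windows. A match is a description of letters and not of binding.

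In F/M fewer of the same genes were called. Of the 28 tested members 2 were upregulated DEG (2.63% of the 16665 genes tested were) and 0 were downregulated (0.858%), against 3.49% of all genes in either direction, with a median log2 change of -0.02 against 0.01 over all genes. At an adjusted p below 0.1 without the fold limit, 4 members were higher (12.8% of all genes) and 6 lower (14.4% of all genes) in the edgeR test, and 5 were higher (15.7% of all genes) and 7 lower (17.1% of all genes) at an unadjusted p under 0.05. DESeq2 called the same number of DEG, 2 higher and 0 lower. The genes called were *Slc6a5* and *Gabre*. *Slc6a5* had 1.73, 0.855 and 0.804 CPM in F/M-N against 1.79, 2.28 and 2.18 CPM in F/M-T (log2 change 0.91, SE 0.25, adjusted p = 0.013). The first F/M-N library lay just under the lowest F/M-T library, and without it the log2 change was 1.36. *Gabre* had 2.17, 2.79 and 2.03 CPM in F/M-N against 3.55, 4.47 and 3.98 CPM in F/M-T, and the genotypes did not overlap (log2 change 0.82, SE 0.16, adjusted p = 8.6e-04). *Gabrq* had 11.2, 11.1 and 9.90 CPM in F/M-N against 14.1, 14.5 and 14.6 CPM in F/M-T (log2 change 0.46, adjusted p = 1.8e-04), under the fold limit. Of the 7 genes of monoamine neurons, 5 were tested in F/M and 2 were upregulated. These were *Slc6a4* and *Tph2*, genes of serotonin neurons, by 5.43 and 3.03 on the log2 scale, and *Slc6a4* passed the filter only with its F/M-T counts. The other 3, *Slc18a2*, *Dbh* and *Th*, were not called, with log2 changes of 0.53, 0.15 and 1.8e-05. No *Hox* gene passed the filter in F/M. The part of monoamine neurons in the changes of *Slc6a5* and *Gabre* was not tested.

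Among the members that were not called in F/M, *Gabrb2* (194, 208 and 177 CPM in F/M-N, and in F/M-T an overlapping 152, 178 and 148 CPM, log2 change -0.24, adjusted p = 0.0036) and *Gabrd* (log2 change -0.21, adjusted p = 0.0021) had values near those seen in Cb. The forebrain neuron list was lower as well, at 410 to 419 CPM in F/M-N against 364 to 366 CPM in F/M-T, with 6 of its 10 genes lower and 1 higher at an adjusted p below 0.1 and none called, and its part in the lower members was not tested. *Gad1* had 512, 514 and 517 CPM in F/M-N against 462, 453 and 457 CPM in F/M-T (log2 change -0.14, adjusted p = 7.8e-04). *Gad2* had 323, 330 and 307 CPM in F/M-N against 305, 320 and 310 CPM in F/M-T (adjusted p = 0.96). *Slc32a1* had 102, 108 and 111 CPM in F/M-N against 104, 110 and 110 CPM in F/M-T (log2 change 0.05, adjusted p = 0.37). The genotypes overlapped for the latter pair of genes but not for *Gad1*, nor for *Gphn*, which had 86.0, 85.5 and 85.0 CPM in F/M-N against 83.0, 80.3 and 81.3 CPM in F/M-T (log2 change -0.04, adjusted p = 0.52). The glycine receptor alpha genes, which rose together in Cb, had little or no difference in F/M. *Glra1* had 3.77, 5.0 and 3.68 CPM in F/M-N against 3.33, 4.39 and 3.00 CPM in F/M-T (log2 change -0.18, adjusted p = 0.47). *Glra2* had 25.9, 25.3 and 25.6 CPM in F/M-N against 24.3, 26.7 and 25.6 CPM in F/M-T (log2 change 0.03, adjusted p = 0.75). *Glra4* had 0.564, 0.540 and 0.593 CPM in F/M-N against 0.438, 0.621 and 0.257 CPM in F/M-T (log2 change -0.33, adjusted p = 0.58). These 3 genes overlapped between the genotypes, whereas *Glra3*, with 30.1, 30.6 and 29.6 CPM in F/M-N against 25.0, 27.9 and 26.5 CPM in F/M-T, was lower in every F/M-T library by less than the fold limit (log2 change -0.15, adjusted p = 0.054). Of the GABA-A subunit genes that rose in Cb, *Gabra5* had 82.5, 78.0 and 77.5 CPM in F/M-N against 75.8, 71.9 and 75.8 CPM in F/M-T (log2 change -0.06, adjusted p = 0.33). *Gabra3* had 175, 180 and 177 CPM in F/M-N against 166, 164 and 164 CPM in F/M-T (log2 change -0.07, adjusted p = 0.10). The direction of both differences, neither of which passed the test, was opposite to that in Cb. *Gabrg3* had 47.2, 44.7 and 44.4 CPM in F/M-N against 43.1, 47.6 and 41.6 CPM in F/M-T (log2 change -0.01, adjusted p = 0.92). *Gabrr2* had 1.17, 1.22 and 1.40 CPM in F/M-N against 0.919, 0.911 and 0.856 CPM in F/M-T. Its F/M libraries did not overlap, but the log2 change of -0.46 did not pass (adjusted p = 0.18). All F/M-T libraries were above all F/M-N libraries for 5 tested members (13.3% of all genes) and below them for 11 (23.6% of all genes).

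Whether the difference between T and N libraries was unequal in the 2 areas was tested by the interaction of tissue and genotype over all 12 libraries, with no term for animals that gave both areas. Of the 28 tested members 10 had a higher log2 change in Cb (6.41% of the 17482 genes tested did) and 1, *Slc6a5*, had a lower one (1.2%), against 7.61% of all genes in either direction. The 10 were the upregulated Cb genes. The difference was 4.29 for *Glra4* (SE 0.63, adjusted p = 5.2e-06), 2.75 for *Gabra5* (0.16, 1.9e-14), 2.51 for *Glra1* (0.27, 1.8e-08) and 2.45 for *Glra3* (0.14, 4.2e-14). It was 1.53 for *Slc6a11* (0.044, 2.4e-21). Among the 10 it was smallest for *Gabra3*, at 0.70 (adjusted p = 2.0e-10), and least certain for *Gabre*, at 0.89 (adjusted p = 0.093), a call that DESeq2, RLE scaling (the size factors of DESeq2 within edgeR) and 7 of the 12 fits without a library did not make. The interaction of *Gabrr2* was -0.27 (SE 0.41, adjusted p = 0.7).

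Set against the control tissues, the members that rose in Cb-T were all among those that Cb-N expressed less than F/M-N. Of the 15 tested members called lower in Cb-N, 10 (66.7%) were upregulated in Cb-T, against 28.9% of the 3225 tested genes called lower in Cb-N. Of the other 13, none was. Among the 10, *Glra4* and *Gabre* passed the filter only with their F/M-N counts in the control comparison and only with their Cb-T counts in Cb. Because both comparisons use the Cb-N libraries, the values are set side by side only. The 5 that were lower in Cb-N and not called in Cb-T were *Gabra2*, *Gabra4*, *Gabrb1*, *Gabrg1* and *Gad2*, with Cb-N levels of 25.2 to 208 CPM on average. The 10 that rose had 0.0603 to 73.9 CPM.

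Other genes of inhibitory synapses, 19 in all, were looked up for the same contrasts. They encode organizers of the inhibitory postsynapse, partners of GABA-B receptors, chloride transporters, enzymes of GABA and glycine breakdown and further subunits and transporters. Of the 18 tested in Cb, 1 was upregulated (8.54% of all genes were) and 0 downregulated (2.66%). At an adjusted p below 0.1 without the fold limit, 6 were higher (29.8% of all genes) and 8 lower (27.9%) in Cb. In F/M 0 were called by edgeR (3.49% of all genes were). There 3 were higher and 6 lower at an adjusted p below 0.1 (12.8% and 14.4% of all genes). The same numbers were found at an unadjusted p under 0.05 (15.7% and 17.1% of all genes). The gene called was *Kctd16*, an auxiliary subunit of GABA-B receptors, with 0.887, 0.413 and 1.11 CPM in Cb-N against 1.27, 1.81 and 1.91 CPM in Cb-T (log2 change 1.06, adjusted p = 9.7e-04). It too was lower in Cb-N than in F/M-N (14.6 to 19.0 CPM). In the interaction 1 of the 18 had a higher log2 change in Cb (6.41% of all genes did), *Kctd16*, by 1.38 (adjusted p = 9.6e-04). A lower one was found for 1 (1.2% of all genes), *Slc6a12*, named after its values were seen. *Slc6a12* encodes a transporter of betaine and GABA. It had 6.34, 6.46 and 6.12 CPM in Cb-N against 5.19, 5.35 and 4.97 CPM in Cb-T, and the genotypes did not overlap (log2 change -0.27, adjusted p = 0.034). In F/M-N it had 2.13, 1.80 and 1.86 CPM against 3.46, 2.11 and 2.57 CPM in F/M-T (log2 change 0.52, adjusted p = 0.063), where the genotypes overlapped. The interaction was -0.77 (SE 0.21, adjusted p = 0.0071), and without the first F/M-T library it was -0.56 (adjusted p = 0.056), under the fold limit. The median log2 change of the list was -0.06 in Cb and -0.03 in F/M.

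The kit marks strand, but the strand setting of the counting is not given in the sources used here, so overlapping antisense genes may have shared reads with 24.9% of the exon bases of *Slc32a1*, 27.8% of those of *Slc6a9* (with *Ccdc24*), 5.84% of those of *Glra1* and 4.98% of those of *Gabra5*. None of *Gabra3*, *Gabrg3*, *Gabre*, *Gabrq*, *Slc6a11*, *Glra2*, *Glra3* and *Glra4* shared exon bases with another gene of the annotation.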

How the data were processed

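RNA of 12 samples was sequenced from stranded mRNA libraries as single-end reads of 50 bases. The authors aligned the reads to mm10 with STAR (version 2.5.1b in the submitters' processing notes), counted them per gene with featureCounts (version 1.26.1 there) and deposited 1 table of raw counts per library. The annotation release and the strand and multiple-mapping settings are not given in the sources used here. The counts hold no molecular identifiers, so that intervals and floors cover counting error only.

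Groups came from the sample labels. The comparisons were Cb-T with Cb-N, F/M-T with F/M-N, Cb-N with F/M-N, and the interaction of tissue and genotype over the 12 libraries. The first 3 were fitted on the 6 libraries compared. Genes were kept by filterByExpr (minimum count 10, minimum total 15), scaled by TMM and tested with the quasi-likelihood test of edgeR 4.0.16 (R 4.3.3, limma 3.58.1) and Benjamini-Hochberg adjustment over all genes kept. The limits for a DEG, an FDR under 0.1 and a change of 1.5-fold or more, follow the study's methods. The fits were also run on simulated counts, as a check of the code and not of the results given here. Alternatives were the Wald test of DESeq2 1.42.0, its size factors in edgeR, no count filter, no fold limit, an FDR below 0.05, a replicate block, a single fit of the 12 libraries, the longest transcript as gene length, and leaving out each library in turn.

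The 30 genes, the further genes of inhibitory synapses and the marker lists were chosen with earlier results of these data known, and no list was tested as a set. Values in every library are given for members called in either tissue or in the interaction and for *Gabrr2*, *Gad1*, *Gad2*, *Slc32a1*, *Slc6a5*, *Glra1* and *Gphn*. The other members are given by fold change or range, with some library values for *Gabrb2*, *Gabrd* and *Glrb*. Further synapse genes are named when called in Cb or F/M. *Slc6a12*, called in neither but in the interaction, was added after its values were seen. Marker genes are given as counts per list, with some of the called or most abundant ones named. Levels per kb were CPM divided by the merged exon length in GENCODE M21. The p-values weigh a difference against the spread between the 3 samples of a group, for which the fit draws on all genes.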

Additional observations from a re-analysis of the deposited data

Results flagged for a closer look

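The difference between T and N libraries was unequal in Cb and F/M for 11 of the 28 tested members, against 7.61% of all genes tested. The test was edgeR's quasi-likelihood test of the interaction of tissue and genotype over 12 libraries, with Benjamini-Hochberg adjustment over all genes. Values are the log2 fold change in Cb minus that in F/M. Glycine receptor alpha genes gave 4.29 for *Glra4* (adjusted p = 5.2e-06), 2.51 for *Glra1* (1.8e-08), 2.45 for *Glra3* (4.2e-14) and 1.15 for *Glra2* (6.0e-07). GABA-A receptor genes gave 2.75 for *Gabra5* (1.9e-14), 1.37 for *Gabrq* (1.9e-07), 1.13 for *Gabrg3* (4.8e-07), 0.89 for *Gabre* (0.093) and 0.70 for *Gabra3* (2.0e-10). The astrocytic GABA transporter *Slc6a11* gave 1.53 (2.4e-21). *Slc6a5*, the neuronal glycine transporter, differed in the other direction by -0.92 (0.0024), with a log2 change of -0.02 in Cb against 0.91 in F/M. Among the further genes of inhibitory synapses the values were 1.38 for *Kctd16* (9.6e-04) and -0.77 for *Slc6a12* (0.0071). The Cb-T libraries also held *Hox* transcripts (summed level 14.3 to 15.1 CPM against 0.371 to 0.596 CPM in Cb-N) and more of the motor nucleus and monoamine genes, so that genotype and sample makeup cannot be told apart in these values. *Gabre* was upregulated in both areas, and *Gabrq* was higher in T in both.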

How the results depend on the processing

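Of the 28 tested members, the number called in Cb was 11, and 9 to 11 when 1 library was left out. It was 9 without Cb-N replicate 2 or Cb-T replicate 2, where *Gabra3* and *Gabrr2* were lost, and 10 by DESeq2, which lost *Gabrr2*. In F/M it was 2 under every alternative other than the fold limit. For the interaction it was 11, 10 to 11 without a library, and 10 by DESeq2, with RLE size factors or at an FDR below 0.05, and the gene lost in each of these fits was *Gabre*, whose difference between areas was 0.63 to 1.28 over all alternatives (adjusted p 0.042 to 0.29). Without the fold-change limit, 24 members were called in Cb, 15 higher (29.8% of all genes) and 9 lower (27.9%). In F/M 10 were called, 4 higher (12.8% of all genes) and 6 lower (14.4%). For *Gabrr2* in Cb the log2 fold change was -1.24 to -0.52 without a library (adjusted p 0.0070 to 0.23).

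Same-numbered libraries did not deviate together (r = -0.016 to 0.062 over the 12 pairs of groups and numbers), and in no pair of groups did all 6 libraries correlate best with their own number. With the replicate block the members called were 11 in Cb, 2 in F/M, 11 for the interaction and 18 between the control areas, as without it.

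Changes of sign occurred only for members near 0 that were not called. In a single fit of 12 libraries the F/M value was -0.00330 for *Glra2* and -0.0101 for *Slc6a9*, and the interaction of *Gabra2* was -0.0200 by DESeq2 and -0.0200 with RLE size factors. Leaving out 1 library at a time, the F/M value ranged from -0.0651 to 0.0298 for *Gabrg3*, from -0.0312 to 0.0194 for *Gad2*, from -0.0292 to 0.00152 for *Slc6a11* and from -0.000430 to 0.0615 for *Glra2*. The interaction ranged from -0.0854 to 0.0592 for *Gabrb2*, from -0.0475 to 0.0165 for *Gabra2* and from -0.0130 to 0.0621 for *Gad1*, and the log2 ratio of the control areas from -0.0685 to 0.0539 for *Slc6a13*. The cause was not tested. With the longest transcript as gene length, *Gabrd* and *Gabrb2* overlapped in Cb-N and *Gabra3* and *Gabrb2* in F/M-N, which merged exons separated. Depth limits *Gabrr1*, *Gabrr3*, *Gabrr2*, *Gabre* and *Glra4*, the members with the lowest levels in Cb-N.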

Other observations

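The gain in Cb-T can be set against the level of the same gene in control F/M. The difference of mean CPM between Cb-T and Cb-N was 5.87% of the F/M-N level for *Gabra3*, 6.11% for *Gabrg3* and 6.77% for *Gabra5*. For *Glra2* and *Glra3* it was 14.6% and 20.1%, and for *Slc6a11*, *Gabrq* and *Gabre* it was 34.7%, 34.9% and 37.7%. For *Glra1* and *Glra4* it was 119% and 167%, and among the 10 genes that rose in Cb these had a mean level in Cb-T above that of F/M-N, at 149% and 177% of it. The *Glra4* ratio of Cb-T to F/M-N reads was 1.77 (exact 95% interval 1.19 to 2.69, counting error only). These values share the Cb-N and F/M-N libraries with the comparisons above and were not tested.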
